A study of Mus musculus with 15 samples.

Results

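The genes described here encode the machinery that copies DNA. The list holds 47 genes, chosen by name, and 46 of them had a probe set annotated to that gene alone, out of 22180 genes measured. Rfc4, the other one, had only a probe set annotated to several genes and was not used. The cells were melan-Ink4a-Arf-1 (melan-a), an immortal pigment cell (melanocyte) line from Cdkn2a tm1RDp/tm1RDp mice, which lack the Cdkn2a tumour suppressor locus. All 15 cultures were of this 1 line. The medium was kept at 37 °C and held 10% serum with cholera toxin at 200 pM and the phorbol ester TPA at 200 nM, both mitogens for melanocytes. In normoxia the gas held 10% CO2 and about 21% oxygen. Hypoxia, given to 4 groups for 24 h, was 1% oxygen with CO2 lowered to 5%, and the effects of both gases cannot be told apart. Of the hypoxic groups, the hypoxia control and the negative control carry only those labels. Si1 and Si6 were transfected 24 h before hypoxia with 1 of 2 small interfering RNAs (siRNAs) against Hif1a, the oxygen-regulated subunit of a hypoxia transcription factor. Each group had 3 arrays, called biological triplicates in the series' text. How the cultures were separated is not described, so p-values measure the spread between these arrays, which may be partly technical.

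DNA replication is prepared in G1 and carried out in S phase. The origin recognition complex (Orc), Cdc6 and Cdt1 first load the Mcm2 to Mcm7 ring onto DNA, a step called licensing. Cdc45 and the GINS complex then turn the ring into an active helicase, polymerases alpha, delta and epsilon copy the strands, and the clamp Pcna holds the polymerases in place. Many of these genes are transcribed under the control of E2F factors as cells enter S phase, so their mRNA levels are widely read together with proliferation. In an RNA extract of a whole culture, fewer cells in S phase and less RNA per cell cannot be told apart.

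Levels are log2 intensities as deposited, fold changes are given on the log2 scale with limma's standard error after the ±, and all p-values are limma's after Benjamini-Hochberg adjustment over all genes. A gene is said to rise or fall where that p was below 0.05. Hif1a, the target, averaged 8.65 in Si1 and 8.93 in Si6, against 10.63 in the negative control, 10.59 in the hypoxia control and 10.34 in normoxia. Pairs of arrays correlated at 0.9963 to 0.9978 within groups and at 0.9763 to 0.9946 between groups, across the probe sets with 1 gene symbol. Melanocyte markers were present, with means over all arrays of 13.06 for Tyrp1, 13.01 for Dct, 12.19 for Pmel and 11.07 for Mitf. The summed log2 level of 10 such markers was 117.1 to 117.7 in normoxia, 113.8 to 114.4 in the hypoxia control and 108.3 to 108.7 in the negative control. It was 105.3 to 105.8 in Si1 and 111.1 to 112.0 in Si6. The markers moved with the groups: 6 of 10 fell in the hypoxia control against normoxia, 9 fell in the negative control against the hypoxia control, and against the negative control 6 fell with Si1 while 5 rose and 1 fell with Si6. In the same comparisons 11.2%, 7.51% and 14.8% of all genes fell, and with Si6 17% rose and 11.9% fell. The part of these markers in the results below was not tested. Of 5 keratinocyte markers 0 were called in any comparison, and their sum stayed between 29.6 and 30.5. The sum of 6 fibroblast markers was 36.5 to 39.4, with Col1a1 at -1.0 in the hypoxia control against normoxia. The sum of 5 immune markers was 32.3 to 32.7 in Si1 and 31.0 to 31.9 in the other groups. Of these Cd68, a marker of macrophages that is also found in lysosomes of other cells, was at 1.33 with Si1 against the negative control (limma adjusted p = 4.2e-09) and at 1.13 in Si1 against Si6. Its part in the results was not tested. The sum of 5 endothelial markers was 27.1 to 28.3.

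Replication genes were lowest in the hypoxia control and highest in the cells with Hif1a siRNA. In the hypoxia control against normoxia, 37 of 46 fell and 1 rose, with a median log2 fold change of -0.52, where 11.2% of all genes fell and 9.87% rose with a median of -0.002. In the negative control against the hypoxia control, 31 rose and 0 fell with a median of 0.40, where 7.8% of all genes rose and 7.51% fell. Against the negative control, 39 rose and 2 fell with Si1 (median 0.61), where 20.2% of all genes rose and 14.8% fell. With Si6, 41 rose and 0 fell (median 0.57), where 17% of all genes rose and 11.9% fell. The medians of all genes in these 3 comparisons lay between -0.013 and -0.008. Several of these comparisons share control arrays, so they are not independent of each other.

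The median level of the 46 genes on each array shows the same order. It was 8.59, 8.57 and 8.72 in normoxia, 8.28, 8.15 and 8.13 in the hypoxia control, 8.47, 8.45 and 8.41 in the negative control, 9.10, 9.05 and 9.27 in Si1, and 9.16, 9.19 and 9.13 in Si6. No array of one of these groups overlapped with another group in this measure, except between Si1 and Si6. The hypoxia control had the lowest group mean for 41 of 46 genes. Of the rest, Orc3 and Gins4 were lowest in Si1, Pold2 and Rpa1 in the negative control, and Rpa3 in normoxia. All hypoxia control arrays lay below all normoxia arrays for 38 genes, an arrangement found for 18.6% of all genes. The 37 genes that fell in the hypoxia control also rose with both siRNAs against the negative control. The share of all genes with this joint pattern, or with the lowest mean in the hypoxia control, was not computed. In the negative control against the hypoxia control, the calls of Gins3, Gins2 and Lig1 were lost without any 1 of the 6 arrays for Gins3, or all but 1 of them for Gins2 and Lig1 (adjusted p up to 0.21).

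**Figure D1:**
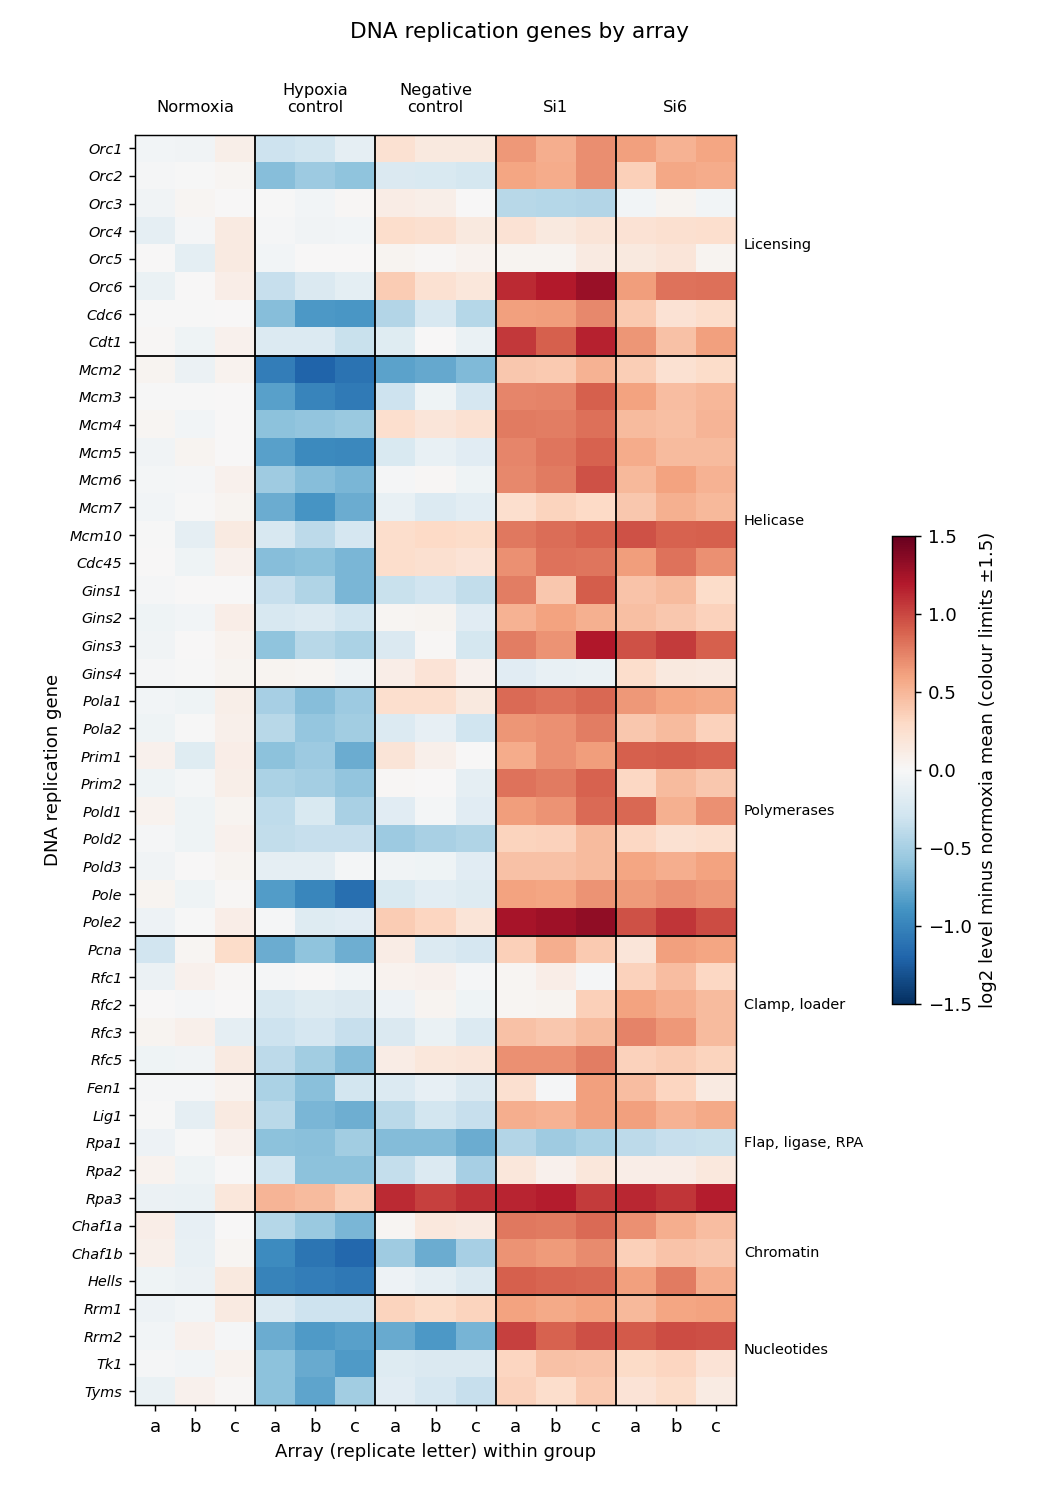
Heat map of the log2 level of 46 DNA replication genes on 15 arrays, each minus the gene's normoxia mean, with genes in rows by role and arrays in columns by group. The hypoxia control columns are blue for most rows, the negative control is mixed, and Si1 and Si6 are red except in rows such as Orc3 and Rpa1.

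Because the members moved together, the letters of their promoters were compared with those of all genes. RefSeq start sites (GRCm38.p6) were found for 39 of the 46 genes, and the 250 bases before each start were searched on both strands. Pole, Gins1, Gins2, Gins4, Mcm4, Prim2 and Rfc2 were not matched. E2F letters (TTTCCCGC, TTTGGCGC, TTTCGCGC or TTTGCCGC, which may overlap each other) stood before 10 of 39 member genes (25.6%) and 456 of 16908 measured genes with a start (2.7%). CCAAT stood before 24 members (61.5%) and 38.7% of measured genes, and before all 8 helicase genes with a start. The CHR letters TTTGAA, which mark many mitotic genes, stood before 5 members (12.8%) and 16.0% of measured genes, and a hypoxia core (ACGTG or GCGTG) before 24 members (61.5%) and 47.8%. A hypoxia core stood before at least 1 start of all 8 licensing genes. E2F letters stood before 0 of 5 flap, ligase and single-strand binding genes and 0 of 4 nucleotide supply genes. Among all 32817 windows of the same length, E2F letters stood in 1.86%, CCAAT in 33.8%, TTTGAA in 16.0% and a hypoxia core in 38.6%. A match is a string of letters and not a bound site.

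**Figure D2:**
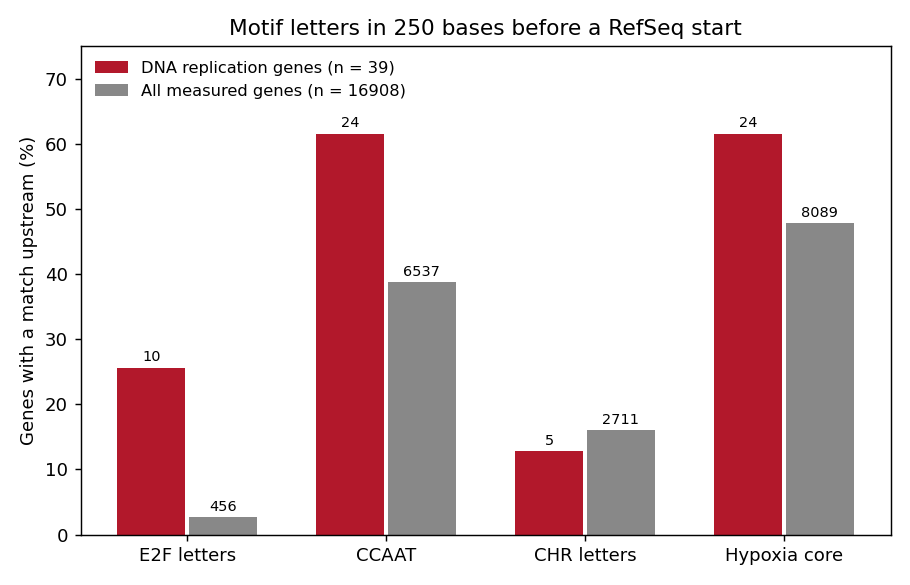
Percent of genes with each set of motif letters in the 250 bases before a RefSeq start, for 39 DNA replication genes and for 16908 measured genes, with the number of genes above each bar. The E2F letters stand before 25.6% of members against 2.7% of measured genes, and the CHR letters before 12.8% against 16.0%.

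The sequences of 6 promoters are shown as examples, the first of them for their E2F letters. Each is the 250 bases before the start, 5′ to 3′ on the gene's strand, with E2F letters and CCAAT in either orientation in capitals. Mcm6 (chr1:128359706-128359955, minus strand) had the most E2F matches of any member, 3, of which 2 overlap each other. Mcm5 (chr8:75109259-75109508, plus strand) had 2, which also overlap. Hells (chr19:38930740-38930989, plus strand) had 1 and no CCAAT. All of these genes fell with hypoxia and rose with both siRNAs.
Mcm6: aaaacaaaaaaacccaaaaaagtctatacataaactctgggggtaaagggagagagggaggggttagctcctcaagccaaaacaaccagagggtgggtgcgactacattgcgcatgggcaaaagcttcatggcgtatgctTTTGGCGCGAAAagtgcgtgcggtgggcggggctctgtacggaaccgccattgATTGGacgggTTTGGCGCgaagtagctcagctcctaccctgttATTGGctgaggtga
Mcm5: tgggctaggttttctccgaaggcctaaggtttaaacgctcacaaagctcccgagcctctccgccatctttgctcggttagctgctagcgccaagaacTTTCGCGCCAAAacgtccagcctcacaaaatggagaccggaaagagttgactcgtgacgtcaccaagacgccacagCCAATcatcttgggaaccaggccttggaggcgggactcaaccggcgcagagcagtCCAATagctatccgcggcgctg
Hells: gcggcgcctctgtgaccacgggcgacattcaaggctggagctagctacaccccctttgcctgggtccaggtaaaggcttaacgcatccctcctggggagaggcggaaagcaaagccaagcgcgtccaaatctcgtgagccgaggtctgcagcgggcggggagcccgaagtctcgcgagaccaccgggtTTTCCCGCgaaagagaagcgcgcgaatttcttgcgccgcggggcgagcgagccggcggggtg

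The other 3 are shown for their mRNA behaviour. Whether these letters go with the mRNA pattern was not tested. Rrm2 (chr12:24708004-24708253, plus strand), with the largest siRNA response, had 1 CCAAT and no E2F letters in this window. Orc3 (chr4:34614943-34615192, minus strand), level with hypoxia and lower with Si1, had 1 E2F match. Rpa3 (chr6:8259142-8259391, minus strand), which rose with hypoxia, had 2 CCAAT and no E2F letters.
Rrm2: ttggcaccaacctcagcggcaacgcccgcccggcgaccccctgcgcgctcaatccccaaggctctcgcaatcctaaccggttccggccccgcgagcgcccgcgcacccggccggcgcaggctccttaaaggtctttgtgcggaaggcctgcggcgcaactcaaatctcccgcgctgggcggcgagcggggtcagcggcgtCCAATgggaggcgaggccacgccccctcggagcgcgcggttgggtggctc
Orc3: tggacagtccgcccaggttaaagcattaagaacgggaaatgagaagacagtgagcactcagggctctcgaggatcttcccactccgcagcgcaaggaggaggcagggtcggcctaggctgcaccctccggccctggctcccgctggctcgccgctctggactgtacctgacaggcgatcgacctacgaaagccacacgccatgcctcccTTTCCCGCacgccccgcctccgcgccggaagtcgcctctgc
Rpa3: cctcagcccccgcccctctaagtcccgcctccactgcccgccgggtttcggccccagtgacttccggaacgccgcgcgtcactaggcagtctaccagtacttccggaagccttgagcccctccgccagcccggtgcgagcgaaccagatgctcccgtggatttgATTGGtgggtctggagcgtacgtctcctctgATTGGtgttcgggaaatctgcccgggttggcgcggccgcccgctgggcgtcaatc

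In the account of each role, a change with hypoxia means the hypoxia control against normoxia, and a change with Si1 or Si6 is against the negative control. Counts by role are to be read beside the shares of all genes given above. Licensing genes divided into those that fell with hypoxia and those that stayed level in that comparison. In the hypoxia control 5 of 8 fell and 0 rose against normoxia, with a median of -0.24. The ones that fell were Cdc6, Cdt1, Orc1, Orc2 and Orc6. Cdc6, which recruits the Mcm ring to origins, read 7.75, 7.75 and 7.76 in normoxia and 7.12, 6.90 and 6.89 in the hypoxia control. It read 7.32, 7.52 and 7.33 in the negative control, 8.38, 8.39 and 8.48 in Si1, and 8.15, 7.98 and 8.02 in Si6. The groups did not overlap, with both hypoxic controls below normoxia and both siRNA groups above it. Cdc6 changed by -0.79 ± 0.07 in the hypoxia control (limma adjusted p = 1.4e-06), 1.03 ± 0.07 with Si1 (2.2e-08) and 0.66 ± 0.07 with Si6 (4.8e-06).

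Cdt1, the partner of Cdc6 in loading, read 7.98, 7.89 and 8.03 in normoxia and 7.75, 7.76 and 7.63 in the hypoxia control. Its levels were 7.78, 7.97 and 7.86 in the negative control, 9.02, 8.86 and 9.12 in Si1, and 8.62, 8.40 and 8.58 in Si6. The fall with hypoxia was small, at -0.25 ± 0.08 (adjusted p = 0.032), and it was lost without normoxia array a or c or any 1 hypoxia control array (adjusted p from 0.051 to 0.13). The negative control overlapped with normoxia, and every siRNA array lay above both. Cdt1 rose by 1.13 ± 0.08 with Si1 (adjusted p = 2.0e-08) and by 0.66 ± 0.08 with Si6 (1.0e-05).

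Within the origin recognition complex, Orc1, Orc2 and Orc6 changed with hypoxia and with both siRNAs, while Orc4 and Orc5 passed none of these tests. Orc2 was at -0.60 ± 0.06 in the hypoxia control (limma adjusted p = 3.3e-06), 0.85 ± 0.06 with Si1 and 0.74 ± 0.06 with Si6. Orc6 was at -0.24 ± 0.08 (adjusted p = 0.042), 0.94 ± 0.08 and 0.50 ± 0.08, and Orc1 at -0.25 ± 0.06, 0.45 ± 0.06 and 0.39 ± 0.06. The Orc6 fall was lost without hypoxia control array a or b or normoxia array b or c (adjusted p from 0.083 to 0.18), and with only the compared groups in the fit. Orc4 was at -0.03 ± 0.06, -0.03 ± 0.06 and 0.02 ± 0.06, and Orc5 at -0.01 ± 0.07, 0.04 ± 0.07 and 0.09 ± 0.07 in the same 3 comparisons. Orc4 was higher in the negative control than in the hypoxia control (0.25 ± 0.06, limma adjusted p = 0.010) and in normoxia (0.22 ± 0.06, 0.011).

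Orc3, another subunit, fell with Si1. It read 9.34, 9.42 and 9.40 in normoxia, 9.38, 9.35 and 9.41 in the hypoxia control, 9.50, 9.48 and 9.39 in the negative control, 8.97, 8.96 and 8.95 in Si1, and 9.35, 9.43 and 9.35 in Si6. The 3 Si1 arrays lay below all others, and the other 4 groups overlapped. The log2 fold change against the negative control was -0.50 ± 0.05 with Si1 (limma adjusted p = 8.2e-07) and -0.08 ± 0.05 with Si6 (0.291), and Si1 differed from Si6 by -0.42 ± 0.05 (8.3e-06). Orc3 has E2F letters in the promoter sequence shown above. After quantile normalization Orc3 was called lower with Si6 too, at -0.15 (adjusted p = 0.015).

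Nearly every helicase gene fell with hypoxia. Of 12, 11 fell and 0 rose in the hypoxia control against normoxia, with a median of -0.60. Against the negative control, 11 rose and 1 fell with Si1, and 11 rose and 0 fell with Si6. Mcm2, a subunit of the ring, read 9.78, 9.65 and 9.79 in normoxia, 8.70, 8.54 and 8.63 in the hypoxia control, 8.94, 8.97 and 9.08 in the negative control, 10.14, 10.13 and 10.26 in Si1, and 10.11, 9.97 and 10.01 in Si6. Both hypoxic controls lay below normoxia on every array, and every siRNA array lay above it. The hypoxia control held 46.1% of the normoxia level (-1.12 ± 0.06, limma adjusted p = 9.3e-09), while Si1 held 227% and Si6 205% of the negative control level (adjusted p = 1.3e-09 and 1.2e-08).

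The other 5 ring subunits fell by amounts that ranged from -0.95 ± 0.08 for Mcm3 and -0.92 ± 0.06 for Mcm5 through -0.78 ± 0.06 for Mcm7 and -0.62 ± 0.06 for Mcm6 to -0.59 ± 0.05 for Mcm4. All 5 rose in the negative control against the hypoxia control, from 0.59 ± 0.06 for Mcm6 to 0.80 ± 0.05 for Mcm4. All 6 subunits rose with both siRNAs. Mcm4 was the least raised by Si6, at 0.26 ± 0.05 (adjusted p = 3.7e-04), and Mcm7 by Si1, at 0.45 ± 0.06 (8.9e-06). So 6 proteins that work as 1 hexamer had mRNA changes of unequal size in the same direction.

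Among the activators of the ring, Cdc45 and GINS travel with it as the working helicase. Cdc45 was at -0.65 ± 0.06 in the hypoxia control (limma adjusted p = 7.9e-07) and at 0.89 ± 0.06 in the negative control against the hypoxia control (8.3e-08). Mcm10, which helps to start the helicase, was at -0.29 ± 0.07 in the hypoxia control, 0.56 ± 0.07 with Si1 and 0.64 ± 0.07 with Si6. Gins3 had the largest siRNA response of the 4 GINS genes, with 205% of the negative control level in Si1 and 217% in Si6. It read 8.33, 8.38 and 8.43 in normoxia, 7.78, 7.96 and 7.91 in the hypoxia control, 8.16, 8.40 and 8.12 in the negative control, 9.15, 9.05 and 9.58 in Si1, and 9.33, 9.43 and 9.28 in Si6. The siRNA arrays were above all others, and negative control array b lay within the normoxia range.

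Gins1 and Gins2 followed the same direction, at -0.50 ± 0.11 and -0.24 ± 0.06 in the hypoxia control and at 1.02 ± 0.11 and 0.58 ± 0.06 with Si1. The Gins2 fall was lost without hypoxia control array c or normoxia array c (adjusted p = 0.058 and 0.069). Gins4, the remaining GINS subunit, did not follow. It read 9.65, 9.66 and 9.71 in normoxia, 9.71, 9.70 and 9.62 in the hypoxia control, 9.77, 9.87 and 9.74 in the negative control, 9.50, 9.56 and 9.57 in Si1, and 9.93, 9.82 and 9.80 in Si6. The Si1 arrays were the lowest, and normoxia overlapped with the hypoxia control. Its log2 fold change was 0.00 ± 0.05 with hypoxia (limma adjusted p = 0.974), -0.25 ± 0.05 with Si1 (0.002) and 0.06 ± 0.05 with Si6 (0.482).

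Every polymerase and primase gene rose with each siRNA. The 9 genes had a median of 0.84 with Si1, from 0.54 to 0.98, and of 0.71 with Si6, from 0.39 to 0.85. With hypoxia 7 fell and 0 rose, with a median of -0.51. Pole, the catalytic subunit of the leading-strand polymerase epsilon, fell most. It read 9.25, 9.15 and 9.23 in normoxia, 8.37, 8.23 and 8.08 in the hypoxia control, 8.98, 9.05 and 9.02 in the negative control, 9.81, 9.80 and 9.88 in Si1, and 9.85, 9.90 and 9.86 in Si6. The order was hypoxia control, negative control, normoxia and siRNA groups, with overlap only between Si1 and Si6. Its log2 fold change with hypoxia was -0.98 ± 0.06 (limma adjusted p = 3.8e-08). A dimmer Pole probe set, at a mean of 5.39, was at 0.04, and the mean of both gave -0.47 (adjusted p = 1.1e-05).

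Pole2, the second subunit of polymerase epsilon, did not share that fall. It read 7.70, 7.77 and 7.88 in normoxia, 7.76, 7.59 and 7.61 in the hypoxia control, 8.16, 8.10 and 7.97 in the negative control, 9.02, 9.05 and 9.11 in Si1, and 8.73, 8.85 and 8.76 in Si6. Normoxia and the hypoxia control overlapped, at -0.13 ± 0.07 (limma adjusted p = 0.223), and the other groups rose stepwise. With Si1 it reached 198% of the negative control level and with Si6 163%. The other gene that missed the test with hypoxia was Pold3, an accessory subunit of polymerase delta, at -0.10 ± 0.05, though it rose with Si1 (0.54 ± 0.05) and Si6 (0.67 ± 0.05).

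The genes of polymerase alpha and primase, which lay down the first stretch of each new strand, fell by similar amounts with hypoxia. Pola1, the catalytic subunit, was at -0.56 ± 0.06, Pola2 at -0.51 ± 0.06, the primase catalytic subunit Prim1 at -0.63 ± 0.08 and its partner Prim2 at -0.53 ± 0.06. Their siRNA responses were less alike. Prim2 was at 0.87 ± 0.06 with Si1 and 0.43 ± 0.06 with Si6, while Prim1 was at 0.54 ± 0.08 and 0.81 ± 0.08. For polymerase delta, the catalytic subunit Pold1 was at -0.37 ± 0.09 and Pold2 at -0.35 ± 0.05 with hypoxia.

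Of the clamp and its loader, 3 of 5 measured genes fell with hypoxia and 0 rose. Pcna, the ring that slides on DNA behind the polymerases, read 10.74, 11.06 and 11.30 in normoxia, 10.28, 10.43 and 10.30 in the hypoxia control, 11.14, 10.83 and 10.78 in the negative control, 11.39, 11.57 and 11.42 in Si1, and 11.21, 11.65 and 11.62 in Si6. The hypoxia control was below all other arrays. Normoxia overlapped with the negative control and with Si6, and Si1 with Si6. Pcna varied more between replicates than most members, with an SD of 0.28 in normoxia, 0.25 in Si6 and 0.19 in the negative control. Pcna changed by -0.70 ± 0.14 with hypoxia (limma adjusted p = 0.002), 0.54 ± 0.14 with Si1 (0.005) and 0.57 ± 0.14 with Si6 (0.005).

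The clamp loader, replication factor C, opens Pcna and places it on DNA. Rfc3 read 7.40, 7.44 and 7.23 in normoxia, 7.05, 7.11 and 7.02 in the hypoxia control, 7.14, 7.26 and 7.15 in the negative control, 7.80, 7.76 and 7.84 in Si1, and 8.10, 8.01 and 7.83 in Si6. The siRNA groups were above all other arrays. Rfc3 changed by -0.30 ± 0.07 with hypoxia (limma adjusted p = 0.006), 0.62 ± 0.07 with Si1 (4.6e-06) and 0.80 ± 0.07 with Si6 (5.9e-07). Rfc5 was at -0.52 ± 0.07, 0.56 ± 0.07 and 0.20 ± 0.07 in the same comparisons. Its rise with Si6 (adjusted p = 0.04) was lost without any 1 of the 6 arrays compared (adjusted p from 0.063 to 0.12), with the replicate block (0.062) and after quantile normalization (0.12, adjusted p = 0.19).

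Rfc1, the large subunit of the loader, was level in 4 groups. It read 8.40, 8.55 and 8.51 in normoxia, 8.47, 8.49 and 8.45 in the hypoxia control, 8.54, 8.56 and 8.47 in the negative control, 8.52, 8.59 and 8.47 in Si1, and 8.83, 8.95 and 8.80 in Si6. The 3 Si6 arrays lay above all others. Its log2 fold change with Si6 was 0.33 ± 0.06 (limma adjusted p = 3.1e-04), and with Si1 0.00 ± 0.06 (0.972). Rfc2 was at 0.57 ± 0.08 with Si6 (adjusted p = 2.4e-05) and 0.18 ± 0.08 with Si1 (0.074). Without Si1 array a or b, the Rfc2 value with Si1 was called (adjusted p from 0.032 to 0.039). With hypoxia Rfc2 was at -0.22 ± 0.08, at the threshold (adjusted p = 0.05), and 5 of the alternatives called it.

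Among the enzymes that finish the lagging strand and the proteins that cover single-stranded DNA, 4 of 5 fell with hypoxia and 1 rose. Lig1, the ligase that seals Okazaki fragments, read 8.72, 8.60 and 8.87 in normoxia, 8.32, 8.05 and 8.0 in the hypoxia control, 8.32, 8.45 and 8.39 in the negative control, 9.28, 9.25 and 9.34 in Si1, and 9.35, 9.25 and 9.30 in Si6. The siRNA groups overlapped with each other and lay above all others, and both hypoxic controls lay below normoxia. Lig1 changed by -0.61 ± 0.08 with hypoxia (limma adjusted p = 5.7e-05), 0.90 ± 0.08 with Si1 (3.3e-07) and 0.92 ± 0.08 with Si6 (5.6e-07). Fen1, which trims the flaps that Lig1 seals, was at -0.46 ± 0.13 (adjusted p = 0.017), 0.47 ± 0.13 (0.009) and 0.49 ± 0.13 (0.008).

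The Fen1 values depended on the probe set. A second probe set, of nearly equal mean level (6.72 against 6.78), was at 0.12 with hypoxia, -0.14 with Si1 and -0.12 with Si6, and none of these passed the test. The mean of both gave -0.17, 0.17 and 0.18 (adjusted p = 0.049, 0.037 and 0.025). The hypoxia fall was lost without hypoxia control array a or b or normoxia array c (adjusted p from 0.051 to 0.086), and the Si1 rise without Si1 array c (0.30, adjusted p = 0.052).

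The subunits of replication protein A, which coats single-stranded DNA, went separate ways. Rpa3, the smallest, rose with hypoxia. It read 9.07, 9.06 and 9.33 in normoxia, 9.67, 9.63 and 9.53 in the hypoxia control, 10.28, 10.18 and 10.25 in the negative control, 10.30, 10.34 and 10.21 in Si1, and 10.29, 10.23 and 10.34 in Si6. Normoxia was lowest, the hypoxia control was next, and the other 3 groups overlapped. Rpa3 was at 0.46 ± 0.07 in the hypoxia control (limma adjusted p = 2.7e-04) and 1.08 ± 0.07 in the negative control (1.7e-08), both against normoxia, and at 0.05 ± 0.07 with each siRNA (0.697 and 0.701). Its second probe set gave 0.34 ± 0.10 and 0.50 ± 0.10 for the first pair (adjusted p = 0.02 and 0.001). In the negative control against the hypoxia control the chosen probe set was at 0.63 ± 0.07 (limma adjusted p = 2.1e-05). There the second was at 0.15 ± 0.10 and was not called (0.4).

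Rpa1, the large subunit, read 10.16, 10.23 and 10.31 in normoxia, 9.62, 9.61 and 9.72 in the hypoxia control, 9.59, 9.59 and 9.49 in the negative control, 9.80, 9.71 and 9.77 in Si1, and 9.85, 9.90 and 9.91 in Si6. All hypoxic arrays lay below all normoxia arrays, whatever the siRNA. It fell by 0.58 ± 0.06 in the hypoxia control and rose by 0.21 ± 0.06 with Si1 (limma adjusted p = 0.008) and 0.33 ± 0.06 with Si6 (2.6e-04). A second probe set, at a mean of 4.17, showed no called change, and with the mean of both the fall was -0.25 (adjusted p = 0.006) and the Si1 rise was lost (0.11, adjusted p = 0.18). Rpa2 was at -0.51 ± 0.08 with hypoxia, 0.50 ± 0.08 with Si1 and 0.48 ± 0.08 with Si6.

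All 3 genes of chromatin assembly and remodelling fell with hypoxia and rose with each siRNA. Chaf1b, a subunit of the factor that places histones on new DNA, read 9.03, 8.84 and 8.98 in normoxia, 8.01, 7.85 and 7.77 in the hypoxia control, 8.42, 8.20 and 8.45 in the negative control, 9.62, 9.59 and 9.66 in Si1, and 9.31, 9.38 and 9.35 in Si6. The 5 groups did not overlap. The hypoxia control held 47.5% of the normoxia level (limma adjusted p = 8.1e-08), and Si1 held 241% and Si6 199% of the negative control level (3.5e-09 and 1.0e-07). Its partner Chaf1a was at -0.56 ± 0.08, 0.70 ± 0.08 and 0.46 ± 0.08 in the same comparisons.

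Hells, a helicase that remodels nucleosomes and is needed for DNA methylation, read 7.48, 7.45 and 7.69 in normoxia, 6.54, 6.50 and 6.47 in the hypoxia control, 7.46, 7.41 and 7.32 in the negative control, 8.44, 8.41 and 8.40 in Si1, and 8.16, 8.32 and 8.08 in Si6. The negative control overlapped with normoxia and the other groups stood apart. Its log2 fold change was -1.04 ± 0.07 with hypoxia (limma adjusted p = 7.1e-08), 1.02 ± 0.07 with Si1 (2.1e-08) and 0.79 ± 0.07 with Si6 (6.4e-07).

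All 4 genes of deoxynucleotide supply fell with hypoxia and rose with each siRNA. Rrm2, the small subunit of ribonucleotide reductase, which makes deoxynucleotides from ribonucleotides, had the largest siRNA response of all members. It read 8.96, 9.06 and 8.98 in normoxia, 8.26, 8.15 and 8.19 in the hypoxia control, 8.24, 8.14 and 8.30 in the negative control, 10.02, 9.89 and 9.97 in Si1, and 9.92, 9.98 and 9.97 in Si6. Both hypoxic controls overlapped with each other and lay below normoxia, and both siRNA groups overlapped with each other and lay above it. Rrm2 held 57.5% of the normoxia level in the hypoxia control (limma adjusted p = 8.5e-08), and 333% of the negative control level with Si1 and 331% with Si6 (7.4e-12 and 1.8e-11). Its promoter sequence, shown above, has no E2F letters. A second Rrm2 probe set, at a mean of 3.47, showed no called change, and the mean of both gave -0.35, 0.90 and 0.92.

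Rrm1, the large subunit of the same enzyme, moved less. It was at -0.28 ± 0.06 with hypoxia (limma adjusted p = 0.003), 0.27 ± 0.06 with Si1 (0.001) and 0.24 ± 0.06 with Si6 (0.005), and it rose by 0.59 ± 0.06 in the negative control against the hypoxia control, where Rrm2 was at 0.02 ± 0.06 (0.868). Tk1, which salvages thymidine, read 9.40, 9.38 and 9.47 in normoxia, 8.80, 8.66 and 8.57 in the hypoxia control, 9.23, 9.20 and 9.20 in the negative control, 9.74, 9.86 and 9.85 in Si1, and 9.71, 9.74 and 9.62 in Si6. The groups did not overlap, though the nearest Si1 and Si6 arrays both read 9.74. Tk1 was at -0.74 ± 0.06 with hypoxia, and Tyms, which makes thymidylate, at -0.64 ± 0.08.

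**Figure D3:**
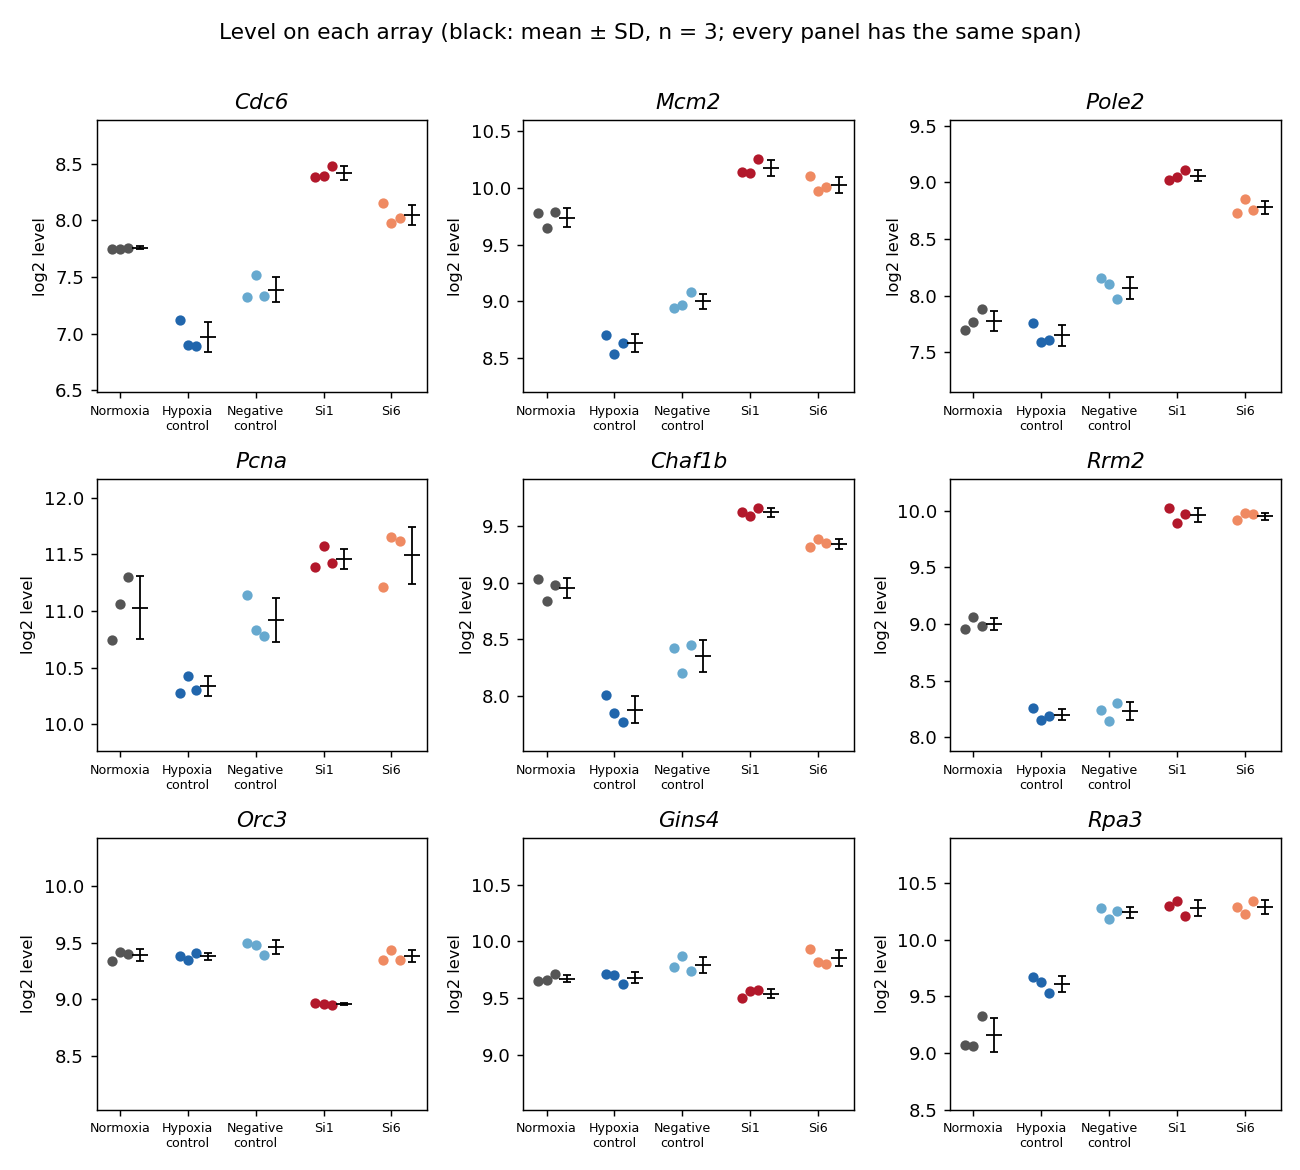
Log2 level on each of 15 arrays for 9 DNA replication genes, with points for arrays, black bars for the mean ± SD of 3 arrays, and a span of equal height in every panel. Cdc6, Mcm2, Chaf1b and Rrm2 dip in the hypoxic controls and peak in Si1 and Si6, Orc3 and Gins4 are lowest in Si1, and Rpa3 is lowest in normoxia.

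Set against normoxia, the negative control was divided and the siRNA groups were higher. In the negative control 14 of 46 genes fell and 10 rose, with a median of -0.10, where 15.7% of all genes fell and 14.6% rose with a median of -0.004. After median centring 18 fell and 6 rose, and the share of higher genes among all called genes was 37% in place of 48%. Of the 37 genes that fell in the hypoxia control, 14 also fell in the negative control, 7 rose there and 16 were not called. The shares of all genes with these joint patterns were not computed. Both comparisons use the same normoxia arrays, so they are not independent. Genes that fell in both were Mcm2, Rrm2, Rpa1, Chaf1b, Pold2, Cdc6, Rpa2, Lig1, Gins1, Tyms, Orc2, Pola2, Tk1 and Pole. Those that fell in the hypoxia control and rose in the negative control were Rrm1, Mcm10, Orc6, Cdc45, Pola1, Mcm4 and Orc1.

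Several negative control calls near the threshold did not hold when 1 array was left out. Those of Gins1, Orc1, Orc6, Pole, Pola2, Tyms, Tk1 and Orc4 were each lost without at least 1 array. The arrays were normoxia a for Orc4 (limma adjusted p = 0.061) and normoxia c for Tk1 (0.063). They were any of the 6 for Gins1 (up to 0.088), and any but normoxia c for Orc1 (up to 0.16). They were negative control a and normoxia a or b for Orc6 (up to 0.11), and negative control a or c and normoxia a or c for Pole (up to 0.10). They were negative control a or c and normoxia c for Pola2 (up to 0.094), and negative control c and normoxia b or c for Tyms (up to 0.078). Mcm3 and Mcm5 (adjusted p = 0.051 for each) were called lower without negative control array b, and Rfc3 lower and Rfc5 higher without normoxia array c.

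When Si1 and Si6 were averaged and set against normoxia, 40 of 46 genes rose and 2 fell, with a median of 0.56, where 20.8% of all genes rose and 16.7% fell with a median of -0.014. The genes that fell were Rpa1 (-0.41 ± 0.05, limma adjusted p = 4.0e-06) and Orc3 (-0.22 ± 0.04, 6.2e-04). The average can hide a difference between the siRNAs. Orc3 averaged 9.39 in normoxia, 8.96 in Si1 and 9.38 in Si6, so only Si1 was lower. Rfc1, counted among the genes that rose, averaged 8.49 in normoxia, 8.53 in Si1 and 8.86 in Si6. Orc5, Gins4, Fen1 and Rpa2 were not called. The largest rises were in Pole2 (1.14 ± 0.06), Rpa3 (1.13 ± 0.06), Orc6 (0.97 ± 0.07), Rrm2 (0.96 ± 0.05) and Gins3 (0.92 ± 0.10). With the mean of both probe sets Rrm2 was at 0.50, Rpa1 at -0.18 and Pole at 0.28 in place of 0.64, all still called. The second Rpa3 probe set alone was at 0.60 ± 0.08 (limma adjusted p = 2.9e-05). Rpa3 was already at 1.08 ± 0.07 in the negative control against normoxia. Without normoxia array a the rise of Pcna (0.44 ± 0.12) was lost (adjusted p = 0.071), and without normoxia array c Orc5 was called higher (0.031). Hypoxic cells with less Hif1a mRNA thus had most replication mRNAs above the level of normoxic cells. Oxygen, CO2 and siRNA treatment differ together in this comparison, and their effects cannot be told apart.

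**Figure D4:**
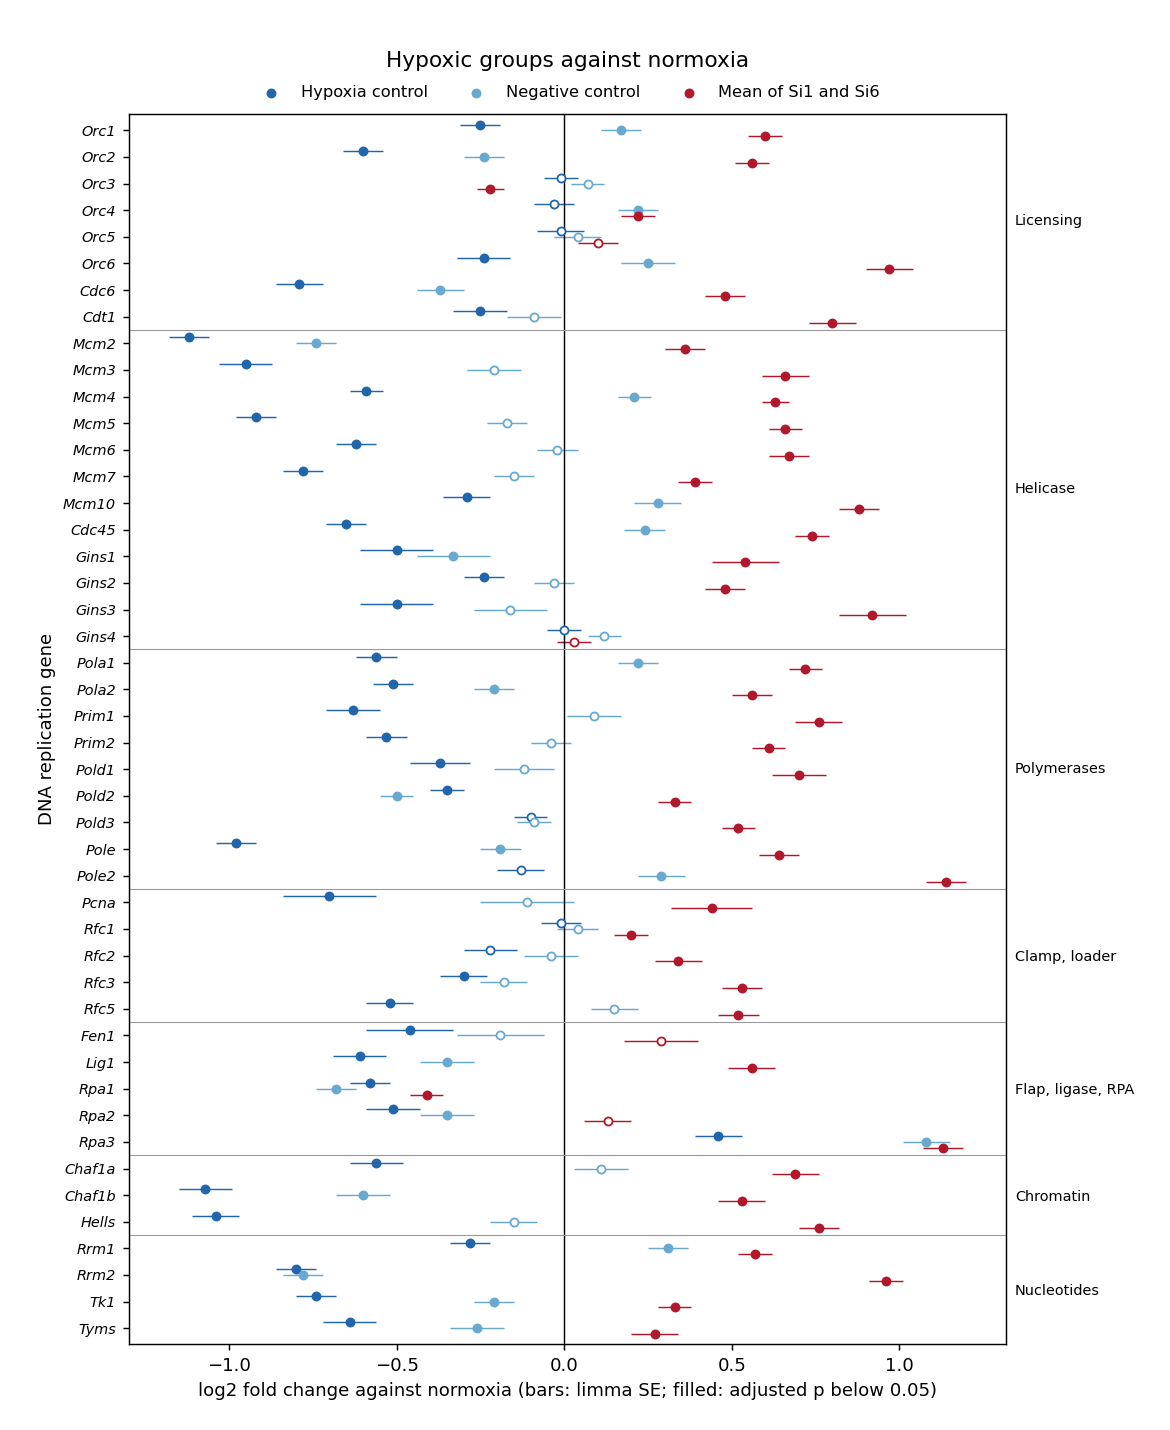
Log2 fold change of 46 DNA replication genes against normoxia in the hypoxia control, the negative control and the average of both siRNA groups, with bars for the limma standard error and filled points for adjusted p below 0.05. The hypoxia control points lie mostly left of 0 (37 called lower), the negative control points lie on both sides, and the siRNA points lie mostly right of 0 (40 called higher).

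The siRNAs differed from each other in part of the list. Between Si1 and Si6, 15 genes were higher in Si1, 6 were lower and 25 were not called, with a median of 0.06, where 14.5% of all genes were higher and 13.4% lower. The genes higher in Si1 were 3 of licensing, 4 ring subunits, 4 of polymerases and primase, 3 of chromatin and 1 of the clamp loader. They included Cdt1 (0.47 ± 0.08, limma adjusted p = 2.9e-04), Orc6 (0.45 ± 0.08), Prim2 (0.44 ± 0.06), Cdc6 (0.37 ± 0.07), Rfc5 (0.36 ± 0.07), Mcm4 (0.31 ± 0.05) and Mcm5 (0.30 ± 0.06). The genes lower in Si1 were Orc3, Rfc2 (-0.39 ± 0.08), Rfc1 (-0.33 ± 0.06), Gins4 (-0.31 ± 0.05), Prim1 (-0.27 ± 0.08) and Mcm7 (-0.19 ± 0.06).

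Within complexes the difference could run both ways, as for Prim1 and Prim2, and for Mcm7 against Mcm3, Mcm4, Mcm5 and Mcm6. Mcm2, the remaining ring subunit, was at 0.15 ± 0.06 and was not called. Si1 also had less Hif1a mRNA than Si6, by -0.28 ± 0.06 on the log2 scale (limma adjusted p = 0.001), and its part in these differences was not tested. None of the 4 nucleotide supply genes and none of the 5 genes of the flap, ligase and single-strand binding group was called, with values from -0.12 to 0.14. These uncalled values do not show that the siRNAs act alike on them. The calls of Chaf1a (0.24 ± 0.08) and Hells (0.23 ± 0.07) were lost without 5 of the 6 arrays, all but Si6 a for Chaf1a and all but Si6 b for Hells (adjusted p up to 0.13 and 0.12). That of Mcm7 was lost without Si1 a or Si6 b or c, that of Mcm3 without Si1 c or Si6 b, and that of Prim1 without Si1 a. Gins1 was called without Si1 b (0.002), and Rfc3 without Si6 c (0.017).

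**Figure D5:**
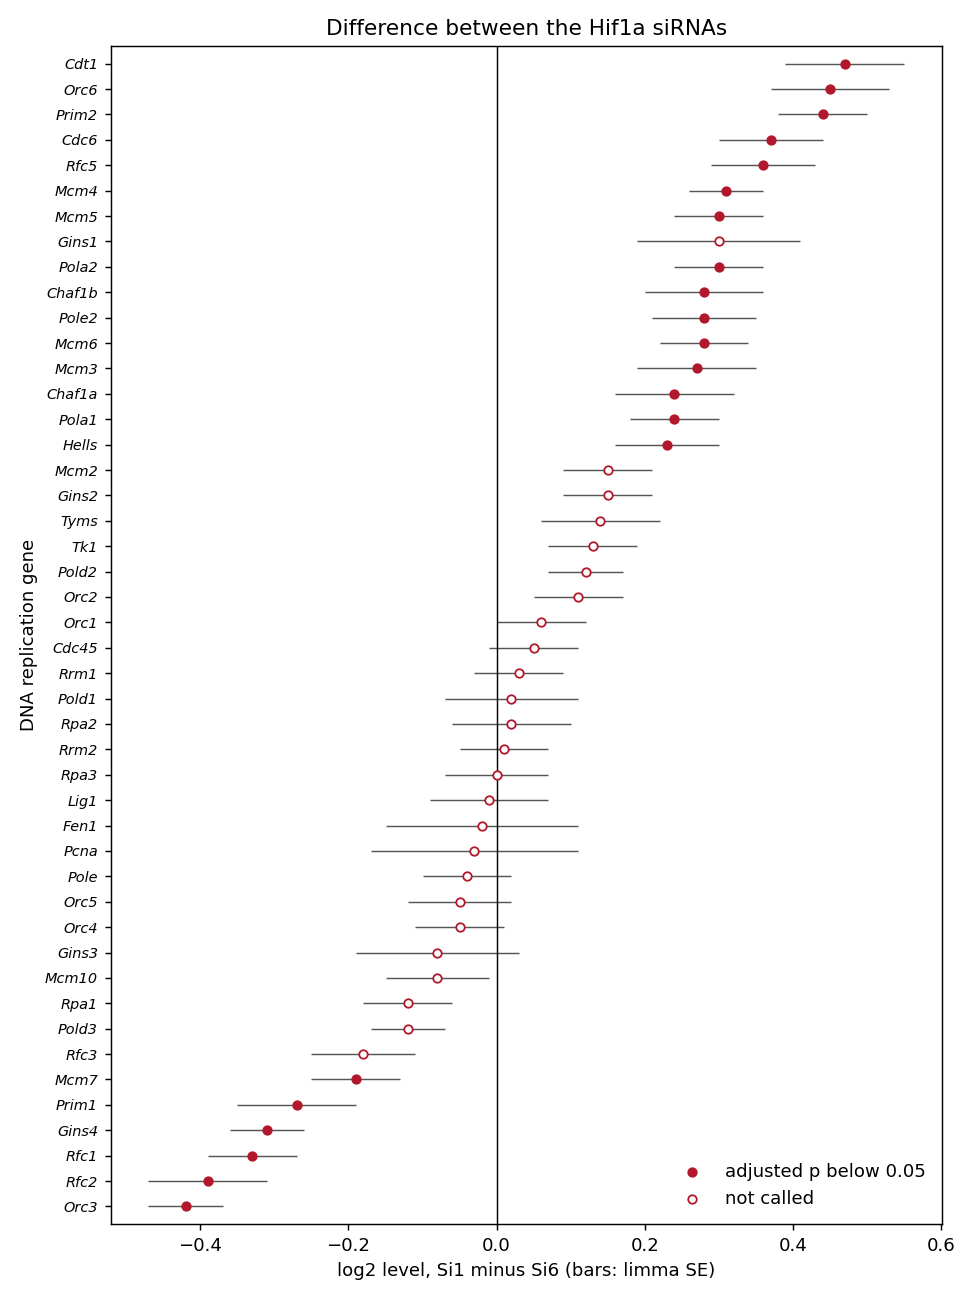
Difference in log2 level between Si1 and Si6 for 46 DNA replication genes, sorted by size, with bars for the limma standard error and filled points for adjusted p below 0.05. Cdt1, Orc6 and Prim2 are at the top between 0.44 and 0.47, and Orc3 and Rfc2 at the bottom at -0.42 and -0.39.

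Other replication genes came from lists that do not overlap with the members. Of all genes, 11.2% fell and 9.87% rose in the hypoxia control against normoxia, and 15.7% fell and 14.6% rose in the negative control. Against the negative control, 20.2% of all genes rose and 14.8% fell with Si1, and 17% rose and 11.9% fell with Si6. These shares belong beside the counts here and in the lists that follow. Of 32 genes of origin firing and fork maintenance, 15 fell and 2 rose in the hypoxia control against normoxia (median -0.19), while in the negative control against normoxia 4 fell and 13 rose (median 0.12). Against the negative control 23 rose and 0 fell with Si1, and 21 rose and 2 fell with Si6. Wdhd1, which links the helicase to polymerase alpha, was at -0.73 with hypoxia, 0.93 with Si1 and 0.70 with Si6, and the nuclease Exo1 at -0.66, 1.08 and 0.73. Mcm8, a relative of the ring subunits, was at -0.09, 0.35 and 0.88. Of 17 further nucleotide genes 11 fell and 2 rose in the hypoxia control, and 7 fell and 2 rose in the negative control, both against normoxia. In the same list 11 rose and 1 fell with Si1, led by the purine enzyme Gart (1.38), the pyrimidine enzyme Cad (1.27) and CTP synthase Ctps (1.27). With Si6, 8 of the 17 rose and 1 fell.

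Genes of replication-linked chromatin and of the fork checkpoint were higher in the negative control than in the hypoxia control where called (7 of 12 and 12 of 20 rose, 0 fell). Of all genes, 7.8% rose and 7.51% fell in this comparison. Of 12 chromatin genes 5 fell and 1 rose in the hypoxia control against normoxia, and 2 fell and 6 rose in the negative control. In this list 11 and 10 rose and 0 fell with Si1 and Si6, among them Cdca7 (1.09 and 0.81) and the histone chaperone Nasp (0.80 and 0.50). Of 20 checkpoint and fork repair genes 14 fell and 1 rose in the hypoxia control against normoxia, and 4 fell and 10 rose in the negative control (median 0.19). With the siRNAs, 14 rose and 2 fell with Si1. With Si6, 13 of these rose and 0 fell. Chek1, the kinase that guards stalled forks, was at -0.48 with hypoxia, 0.93 with Si1 and 0.84 with Si6.

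The regulators of the step from G1 to S phase were mixed. Of 33, 11 fell and 5 rose in the hypoxia control and 6 fell and 13 rose in the negative control, both against normoxia. Of all genes, 11.2% fell and 9.87% rose in the hypoxia control, and 15.7% fell and 14.6% rose in the negative control. Against the negative control 21 rose and 4 fell with Si1, and 22 rose and 3 fell with Si6. Cdkn1a, an inhibitor of cyclin-dependent kinases, was at 0.65 in the hypoxia control and 1.14 in the negative control against normoxia. Against the negative control it was at 0.59 with Si1 and at 0.15 with Si6, which was not called. Rbl1, a relative of the retinoblastoma protein, was at -1.01 in the hypoxia control and 0.06 in the negative control. Cdk2, a kinase that starts S phase, was at -0.48 and -1.21 against normoxia in these groups. Skp2, which marks cell-cycle inhibitors for destruction, was at 1.07 with Si1 and 0.44 with Si6.

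Mitosis genes were raised in the negative control, where 14.6% of all genes rose against normoxia and 7.8% against the hypoxia control. Of 24, 8 rose and 5 fell in the hypoxia control against normoxia, with a median of 0.13, and all 24 rose in the negative control against normoxia (0.75) and against the hypoxia control (0.71). Against the negative control 7 rose and 6 fell with Si1 (median 0.02), and 13 rose and 1 fell with Si6 (0.19). Cenpf, a kinetochore protein, was at 0.54 in the hypoxia control, -0.56 with Si1 and -0.14 with Si6, the last not called. The cytokinesis scaffold Anln was at 0.52, -0.04 and 0.14, of which only the first was called. How the mitosis and replication lists differ was not tested. The 9 hypoxia response genes all rose in both hypoxic controls against normoxia, with medians of 2.39 and 2.4, and all fell with each siRNA against the negative control. Against the hypoxia control, 2 of the 9 fell in the negative control and 0 rose.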

How the data were processed

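The 15 samples of a mouse melanocyte line, 3 in each of 5 groups, were each run on a one-colour Affymetrix array. The authors deposited 1 table of log2 intensities with 41345 probe sets, which ran from 2.6 to 14.9. Per the submitters' processing notes, RMA and Partek were used. No version or order is given. Array medians lay between 6.52 and 6.61, as after normalization between arrays, so a change common to all genes would be hidden. Fold changes of dim genes are compressed. The file holds no detection calls.

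The 23521 probe sets with exactly 1 gene symbol in the platform annotation were used. RefSeq identifiers (GRCm38.p6) were found for 23328 of them and changed 0 symbols. Where a gene had several, its brightest by mean level was kept, which left 22180 genes. All arrays entered 1 linear model with a mean per group and no covariates, moderated by eBayes (limma 3.58.1, R 4.3.3). Tests were two-sided, adjusted by Benjamini-Hochberg over all genes of a comparison, with a threshold of 0.05. The code was tested on simulated data.

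The members and all lists were chosen with earlier results of these data known. Every member could be named. Array values are given for the 2 members of each role with the largest change over the first 5 comparisons and for members that went against their role. Up to 4 genes with the largest change were named from each other list. Alternatives were quantile normalization, centring on array medians, dropping the dimmest 25% of genes, averaging the probe sets of each gene, trend and robust settings in eBayes, only the compared groups in the fit, a replicate block, and leaving out each array. Motif letters were searched with Python 3.11.15. Scanner files were not analysed here.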

Additional observations from a re-analysis of the deposited data

Results flagged for a closer look

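The effects of the 2 Hif1a siRNAs differed for 21 of the 46 replication genes by limma's test of Si1 against Si6, adjusted over all genes. In the same test 14.5% of all genes were higher and 13.4% lower in Si1. The log2 differences, Si1 minus Si6, were positive for 15 genes. They were 0.47 for Cdt1, 0.45 for Orc6, 0.44 for Prim2, 0.37 for Cdc6, 0.36 for Rfc5, 0.31 for Mcm4, 0.30 for Mcm5, 0.30 for Pola2, 0.28 for Mcm6, 0.28 for Pole2, 0.28 for Chaf1b, 0.27 for Mcm3, 0.24 for Pola1, 0.24 for Chaf1a and 0.23 for Hells. They were negative for 6 genes, at -0.42 for Orc3, -0.39 for Rfc2, -0.33 for Rfc1, -0.31 for Gins4, -0.27 for Prim1 and -0.19 for Mcm7. The calls of Chaf1a, Hells, Mcm7, Mcm3 and Prim1 were each lost when certain single arrays were left out, as given above. Orc3 and Gins4 fell with Si1 against the negative control, at -0.50 and -0.25, while Si6 gave -0.08 and 0.06, which were not called.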

How the results depend on the processing

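With 3 arrays in a group, their number limits the precision, and the file gives no background signal. Over 322 results on single members (46 genes in 7 comparisons), 4177 of 4324 values under other settings kept their side of the threshold. The call was lost by 105 and gained by 42, and 0 changed direction with a call in either fit. Changes of sign in values without a call were not counted. The count of members that rose in the negative control against normoxia dropped from 10 to 6 after median centring. After quantile normalization 1 member fell with Si6 against the negative control, in place of 0. All other counts of members stayed within 1.5 times their value. Without 1 array, the number that fell in the hypoxia control ranged from 33 to 36, and the number that rose with Si1 from 38 to 40. The replicate letters did not pair the arrays. Same-letter pairs deviated together at a median correlation of -0.0019, over 0.1 in 3 of 30 pairs. With the replicate block 37 members fell in the hypoxia control, 39 rose with Si1 and 40 with Si6, where Rfc5 lost its call.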
